A study of Mus musculus with 12 samples.

Results

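Acyl-CoA thioesterases and uncoupling proteins are 2 families of the mitochondria and of fatty acid metabolism, and 7 mouse genes of them, Acot1, Acot2, Acot7, Acot9, Acot13, Ucp2 and Ucp3, were followed across the 3 groups of this heart study. The genes were taken by their symbol in the platform annotation, and 6 of the 7 had a probe set, 1 each, among 19505 measured genes. Ucp2 had no probe set with its symbol and was not analysed here. The probe sets were TC1200000798.mm.2 for Acot1, TC1200000797.mm.2 for Acot2, TC0700001408.mm.2 for Ucp3, TC0400002016.mm.2 for Acot7, TC0X00001580.mm.2 for Acot9 and TC1300001669.mm.2 for Acot13.

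The arrays held RNA of whole myocardium from 12 mice, 4 in each group. DM_AngIV mice were made diabetic with intraperitoneal streptozotocin, a toxin of the pancreatic beta cell, on 5 days, had a fasting glucose of at least 16.7 mM at 2 weeks, and then received an infusion of high-dose angiotensin IV (2.88 mg/kg/day), a peptide that arises from angiotensin II, between weeks 8 and 24. DM mice were made diabetic by the same injections and met the same glucose criterion, with no angiotensin IV. NC mice were given 5 daily injections of the vehicle alone. Tissue is labelled as 6 months in all groups, and the sources used here do not give the strain, sex or age at induction. The sources used here name no gene change in any group, and the diabetes was induced with a toxin. No group of treated mice without diabetes was analysed here. The study asked how angiotensin IV affects diabetic heart disease.

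Inside the cell a fatty acid is used as its coenzyme A ester. Acyl-CoA synthetases make that ester, and acyl-CoA thioesterases split it again into the free fatty acid and coenzyme A, so that the enzyme pair sets how much activated fatty acid is present in each compartment. Acot1 works in the cytosol and Acot2 in the mitochondrial matrix, and both are known targets of the fatty acid receptor PPAR-alpha. Ucp3 is a carrier of the inner mitochondrial membrane in muscle and brown fat, related to the heat-producing Ucp1, and is also induced through PPAR receptors when fatty acid supply is high, as in fasting and diabetes.

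In the GRCm38.p6 annotation Acot2 and Acot1 are the first 2 of 6 thioesterase genes that follow each other on chromosome 12, in the order Acot2, Acot1, Acot4, Acot3, Acot5 and Acot6. Ucp3 and Ucp2 are direct neighbours on chromosome 7, while Acot7 lies on chromosome 4, Acot13 on chromosome 13 and Acot9 on chromosome X. Promoter windows of RefSeq (GRCm38.p6) of 300 bases around the gene start matched 6 of the 7 genes, all but Acot13. The windows of Acot1, Acot2 and Ucp3 are shown, since these genes varied together across the arrays. They lie at chr12:84009252-84009551, chr12:83987611-83987910 and chr7:100472741-100473040, all on the plus strand. Capitals mark the hexamer AGGTCA, a unit of the binding elements of PPAR and related nuclear receptors and not a whole PPAR element. They also mark any pair of such hexamers with 1 base between them and at most 2 mismatches.
Acot1: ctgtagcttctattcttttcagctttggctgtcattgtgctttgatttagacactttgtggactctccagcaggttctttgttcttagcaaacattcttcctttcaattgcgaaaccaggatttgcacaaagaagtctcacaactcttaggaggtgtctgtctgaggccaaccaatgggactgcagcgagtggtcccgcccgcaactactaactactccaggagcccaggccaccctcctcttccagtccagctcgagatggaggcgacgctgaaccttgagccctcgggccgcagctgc
Acot2: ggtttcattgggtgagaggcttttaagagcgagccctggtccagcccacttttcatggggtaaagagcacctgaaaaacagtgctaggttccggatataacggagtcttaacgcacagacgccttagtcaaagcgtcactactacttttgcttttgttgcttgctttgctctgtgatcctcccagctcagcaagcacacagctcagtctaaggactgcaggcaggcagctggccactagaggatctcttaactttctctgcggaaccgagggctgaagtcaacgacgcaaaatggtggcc
Ucp3: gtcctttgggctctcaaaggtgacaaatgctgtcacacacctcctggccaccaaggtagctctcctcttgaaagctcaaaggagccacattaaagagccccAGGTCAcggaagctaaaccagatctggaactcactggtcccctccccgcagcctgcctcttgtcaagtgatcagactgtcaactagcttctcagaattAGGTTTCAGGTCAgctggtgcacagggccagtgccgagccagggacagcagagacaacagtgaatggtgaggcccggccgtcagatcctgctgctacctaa

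The Ucp3 window held AGGTCA 2 times on the plus strand, at positions -149 to -144 and -44 to -39 from the gene start. The second copy was the right-hand copy of a direct repeat at -51 to -39 with 2 mismatches. Neither strand of the Acot1 and Acot2 windows held AGGTCA or such a repeat. Of 32851 promoter windows of the same length, 16.3% held AGGTCA on either strand and 3.86% held the repeat. The matches are given as descriptions. The Acot1 and Acot2 windows had 149 identical bases in a global alignment, within the 141 to 158 found over all 15 pairs of the 6 windows. The starts of these neighbouring genes thus did not stand out from the other pairs of members. Those pairs include the related neighbours Ucp2 and Ucp3, at 158.

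All values are log2 expression after robust multi-array average (RMA), in which a difference of 1 is a doubling, and a probe set's level is compared only with itself. Array medians lay between 4.12 and 4.19, and any 2 arrays had r of 0.977 to 0.990 over all genes. A level of 4.96, the 95th percentile of 246 reporter control probe sets, is used as the background, and all 6 genes lay above it on all 12 arrays. All 14 markers of ventricular cardiomyocytes were above it, with a list mean between 11.21 and 11.37 on every array. Myl7, the atrial myosin light chain, was above background on 5 arrays, DM replicates 1, 2 and 4 at 8.86, 9.68 and 8.10 and NC replicates 1 and 3 at 10.08 and 7.90, and between 3.53 and 4.28 on the other 7, among them all DM_AngIV arrays.

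In all diabetic hearts without angiotensin IV (DM) Acot1, Acot2 and Ucp3 had higher levels than in every control heart (NC). Acot7, Acot9 and Acot13 lay close to the controls there. None of the 6 genes passed the test over all genes, a limma adjusted p below 0.05, which 3 of 19505 genes (0.0154%) passed in DM against NC, all lower. In DM_AngIV hearts the same 3 genes had means between those of DM and NC, with a wide spread among the 4 mice. No member passed in DM_AngIV against DM or in DM_AngIV against NC either.

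Acot1, the cytosolic enzyme, was measured at 8.12, 7.85, 7.35 and 6.77 in DM replicates 1 to 4, against 5.90, 5.82, 6.23 and 5.68 in NC replicates 1 to 4. The lowest DM heart was thus above the highest NC heart. The means were 7.52 ± 0.60 in DM and 5.91 ± 0.23 in NC (SD, n = 4 each), a difference of 1.61 ± 0.30 (SE) on the log2 scale or 3.06-fold, with a 95% confidence interval of 1.96 to 4.78-fold and a limma adjusted p of 0.0985. This was the fold change at rank 5 of all genes from the top. Without DM replicate 4, the lowest of its group, the log2 value was 1.87 and limma adjusted p was 0.0271, and without DM_AngIV replicate 1 the adjusted p was 0.0430 at the same fold. In addition, 2 other settings moved Acot1 past the threshold, a variance prior that follows expression (limma adjusted p = 0.0263) and a test of the more highly expressed genes alone (0.0496). Without DM replicate 1, the highest of its group, the log2 value fell to 1.41. With single arrays left out the limma adjusted p reached 0.338.

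Acot2, the mitochondrial enzyme, had levels of 9.76, 9.15, 8.96 and 8.48 in DM replicates 1 to 4 and of 8.03, 7.95, 8.20 and 7.88 in NC replicates 1 to 4. These groups did not overlap either. The means were 9.09 ± 0.53 in DM and 8.02 ± 0.14 in NC (SD, n = 4 each), a difference of 1.07 ± 0.24 (SE) on the log2 scale, or 2.10-fold (limma adjusted p = 0.152). Its 95% confidence interval was 0.56 to 1.58 on the log2 scale, and its fold change stood at rank 16. Without DM replicate 4, the lowest of its group, the log2 fold change was 1.27 (limma adjusted p = 0.0437). Without DM replicate 1, the highest, it was 0.85, and with single arrays left out the limma adjusted p reached 0.397. Probe sequences were not used here, and Acot1 and Acot2 encode closely related proteins, so hybridisation of one transcript to the other's probes was not tested.

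Ucp3 was at 8.68, 8.31, 7.98 and 7.57 in DM replicates 1 to 4, against 6.43, 7.14, 7.07 and 5.98 in NC replicates 1 to 4. Its DM values all lay above the NC values, but the NC hearts were themselves spread, with replicates 2 and 3 above replicates 1 and 4. The means were 8.14 ± 0.47 in DM and 6.65 ± 0.55 in NC (SD, n = 4 each). The log2 fold change of 1.48 ± 0.43 (SE), 2.79-fold with a 95% interval of 1.48 to 5.28, stood at rank 8 from the top but had a limma adjusted p of 0.308. No setting tried brought it below the threshold, and the lowest adjusted p was 0.169.

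Acot7, a cytosolic thioesterase best known from brain, was at 6.90, 6.87, 6.78 and 6.83 in DM replicates 1 to 4 and at 6.44, 6.83, 6.56 and 6.77 in NC replicates 1 to 4. The groups overlapped, and DM minus NC was 0.20 ± 0.11 (SE; limma adjusted p = 0.639). Acot9, a mitochondrial thioesterase, was at 5.84, 5.65, 5.77 and 5.65 in DM replicates 1 to 4 and at 5.89, 5.52, 5.97 and 5.80 in NC replicates 1 to 4, and DM minus NC was -0.06 ± 0.12 (SE; limma adjusted p = 0.936). Acot13, a thioesterase associated with mitochondria, was at 10.67, 10.81, 10.83 and 10.92 in DM replicates 1 to 4, against 10.71, 10.83, 10.76 and 10.73 in NC replicates 1 to 4. Its log2 fold change was 0.05 ± 0.09 (SE), with a 95% confidence interval of -0.15 to 0.25. For these 3 genes the intervals bound a DM-to-NC ratio between 0.799-fold and 1.35-fold.

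Of the 6 genes, 3 were higher in every DM heart than in every NC heart and 0 were lower in this sense, where 2.45% of all genes were higher and 2.09% were lower without overlap. The median log2 fold change of the 6 was 0.63, that of all genes -0.00101, and 5 of the 6 values were positive against 49.8% of all genes. The members, like the lists below, were chosen with earlier results of these data known, so these shares are descriptions and no test. With the atrial signal, the mean of 7 markers, as a covariate the log2 fold changes of Acot1, Acot2 and Ucp3 in DM against NC were 1.58, 1.05 and 1.47. On the arrays with Myl7 at background alone, which leave DM replicate 3 and NC replicates 2 and 4, Acot2 had 1.04 and Ucp3 1.42. The values of Acot7 and Acot9 changed sign on those arrays, at -0.02 and 0.11.

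**Figure D1:**
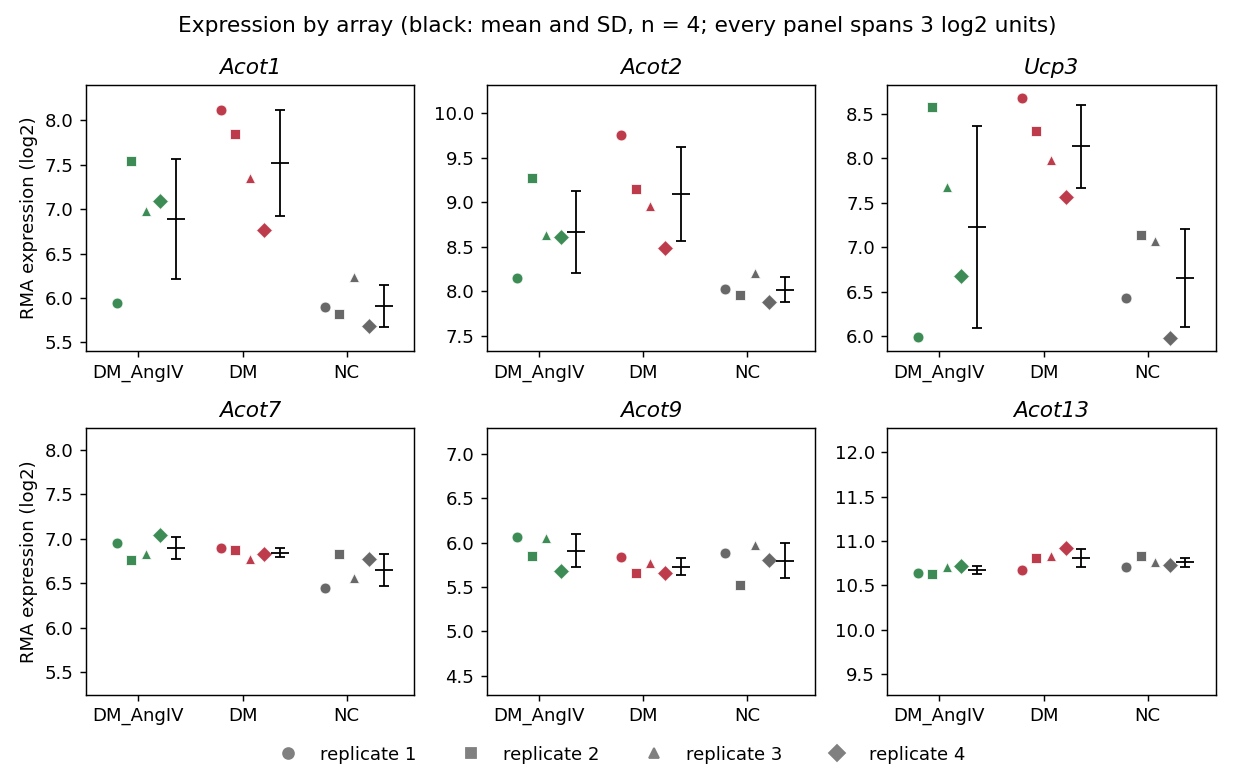
RMA expression (log2) of the 6 measured genes on each of the 12 arrays, with DM_AngIV in green, DM in red and NC in grey, the marker shape giving the replicate and black bars the mean and SD of 4 arrays. Acot1, Acot2 and Ucp3 lie higher in all 4 DM hearts than in any NC heart and are spread widely in DM_AngIV, while Acot7, Acot9 and Acot13 stay within a narrow band.

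The DM hearts did not carry the 3 genes at one level. Acot1, Acot2 and Ucp3 had the same order, with DM replicate 1 highest, then 2, 3 and 4. The SD of Acot1 within DM, 0.60, was larger than that of 99.0% of the 9802 genes above background on any array, and that of Acot2, 0.53, larger than that of 98.5%. The SD of Ucp3 in DM, 0.47, was larger than that of 97.7%. In NC the SD of Acot1 exceeded that of 75.5% of these genes and the SD of Acot2 that of 37.3%, while Ucp3 had an SD of 0.55 there, which exceeded that of 98.4%. Acot13 had an SD of 0.10 in DM, above that of 21.7% of genes, and of 0.05 in NC, above that of 4.18%. This order within DM was not particular to these genes or to any one cell type. Means of the lists of other PPAR targets, carnitine shuttle and malonyl-CoA control, beta-oxidation enzymes and adipocyte markers also had it. Those of endothelial markers and acyl-CoA synthetases did not. Macrophage and monocyte markers had the same order within DM: the mean of the 13 measured markers was 6.40, 5.90, 5.89 and 5.47 in DM replicates 1 to 4, against 5.47 to 5.58 in NC. DM replicate 4 was thus within the NC range of these markers. Their mean was 5.99, 6.08, 5.97 and 5.59 in DM_AngIV replicates 1 to 4. In DM_AngIV replicate 1 it was above every NC heart, while Acot1, Acot2 and Ucp3 lay in the NC range there. The part of these markers in the result was not tested. In whole tissue, more cells of a type and more RNA per cell cannot be told apart.

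In DM_AngIV hearts Acot1 was at 5.95, 7.54, 6.98 and 7.09 in replicates 1 to 4, a mean of 6.89 ± 0.67 (SD, n = 4), against the DM mean of 7.52 ± 0.60 given above. Replicate 1 lay within the NC range and the other 3 lay above it. DM_AngIV minus DM was -0.63 ± 0.30 (SE; limma adjusted p = 0.677), and its 95% confidence interval of -1.28 to 0.01 just included 0. Without DM_AngIV replicate 1 it was -0.32, and without DM replicate 4 it was -0.88.

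Acot2 followed the same pattern, with 8.15, 9.27, 8.63 and 8.61 in DM_AngIV replicates 1 to 4 and a mean of 8.66 ± 0.46 (SD, n = 4). Replicate 1 was again inside the NC range, and replicate 2 was above all DM hearts but replicate 1. DM_AngIV minus DM was -0.43 ± 0.24 (SE; limma adjusted p = 0.711), and it was -0.20 without DM replicate 1.

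Ucp3 was the most variable, at 5.98, 8.58, 7.68 and 6.67 in DM_AngIV replicates 1 to 4. These 4 hearts reached from close to the lowest NC value to just under the highest DM value, and the SD of 1.14 was larger than that of 99.8% of genes above background. DM_AngIV minus DM was -0.91 ± 0.43 (SE; limma adjusted p = 0.672), with a 95% confidence interval of -1.82 to 0.01. It was -0.49 without DM_AngIV replicate 1 and -1.36 without replicate 2, so the size of this difference rested on single hearts.

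The other 3 members again differed little. Acot7 was at 6.95, 6.77, 6.83 and 7.05 in DM_AngIV replicates 1 to 4, with a log2 fold change of 0.05 in DM_AngIV against DM. Acot9 was at 6.06, 5.85, 6.05 and 5.68 there, with 0.18, and Acot13 at 10.64, 10.63, 10.71 and 10.71, with -0.13. Their limma adjusted p lay between 0.768 and 0.942. In DM_AngIV against DM 0 of 19505 genes (0%) passed with limma, and 1459 had an unadjusted p below 0.05, of which none was a member. No member separated the 2 groups without overlap, against 2.81% of all genes that were higher and 2.2% that were lower in DM_AngIV. All DM_AngIV arrays had Myl7 at background, and with the atrial covariate the values of Acot1, Acot2 and Ucp3 in this comparison were -0.43, -0.30 and -0.79.

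Against NC, the DM_AngIV hearts had a log2 fold change of 0.98 ± 0.30 (SE) for Acot1, 0.65 ± 0.24 for Acot2 and 0.58 ± 0.43 for Ucp3 (limma adjusted p = 0.134, 0.222 and 0.588). Acot7 had 0.25, Acot9 0.12 and Acot13 -0.09. In this comparison 198 genes (1.02%) passed and no member did, and no member separated the groups, where 5.63% of all genes were higher and 4.2% lower without overlap. Without DM_AngIV replicate 1 Acot1 was at 1.30 and passed (limma adjusted p = 0.0357). Ucp3 was at 0.99 without that heart but at 0.12 without DM_AngIV replicate 2. The order of the means was DM, DM_AngIV, NC for Acot1, Acot2 and Ucp3, and neither neighbouring step in that order passed the test. The 3 comparisons share arrays and are not independent of each other.

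**Figure D2:**
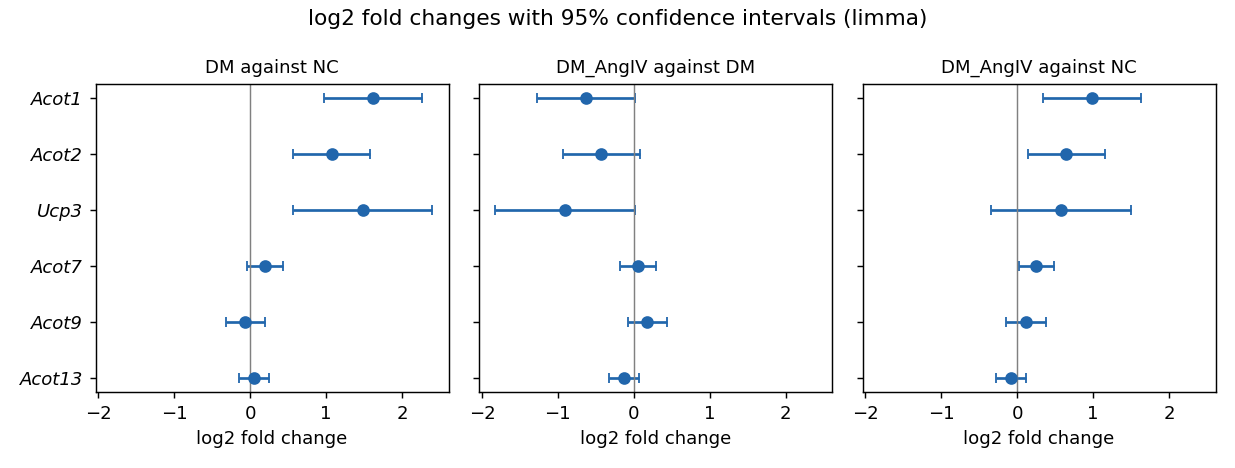
The log2 fold change of each gene (point) with its 95% confidence interval (bar) from limma, 1 panel for each comparison of 2 groups. In DM against NC the intervals of Acot1, Acot2 and Ucp3 lie above 0, and in DM_AngIV against DM all 6 include 0. In DM_AngIV against NC those of Acot1, Acot2 and Acot7 lie above 0. None of the 6 genes passes after adjustment over 19505 genes.

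Across the 12 arrays Acot1 and Acot2 varied together, with Pearson r = 0.97 and Spearman rho = 0.99 (permutation p = 1e-05 for each, the smallest that 100000 resamples can give, and 0.00015 after adjustment over the 15 pairs of members). Acot1 and Ucp3 had r = 0.88 and rho = 0.86 (adjusted permutation p = 0.00205 and 0.00385), and Acot2 and Ucp3 had r = 0.88 and rho = 0.90 (0.0012 and 0.00142). Without the 2 arrays farthest from the median of the first gene of each pair, the r values were 0.97, 0.81 and 0.82. The permutations ran over all 12 arrays without regard to group, so these p-values also take in differences between the groups. Of the deviations from the group means, which were not tested, the r was 0.93 for Acot1 with Acot2, 0.81 for Acot1 with Ucp3 and 0.81 for Acot2 with Ucp3. Of the 12 other pairs, 1 passed, Acot9 with Acot13, by rank only (rho = -0.73, adjusted permutation p = 0.0326; r = -0.64, 0.0985), and its r was -0.45 without the 2 farthest arrays.

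**Figure D3:**
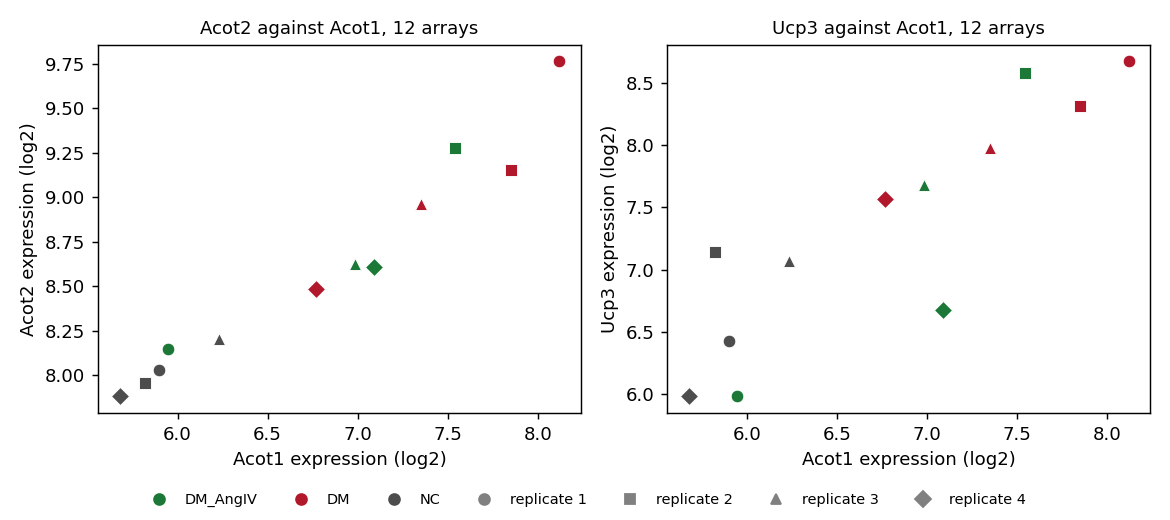
Each point is 1 of the 12 arrays, with Acot1 expression (log2) on the horizontal axis and Acot2 (left) or Ucp3 (right) expression (log2) on the vertical axis, coloured by group and shaped by replicate. Acot2 follows Acot1 along a single line through all groups (r = 0.97), and Ucp3 follows with more scatter (r = 0.88), with DM_AngIV replicate 1 among the NC hearts in both panels.

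The genes most like each member were named by the highest Pearson r over the 12 arrays among 9577 genes above background, a selection that carries no p. For Acot1 they were Acot2, Ephx2 (soluble epoxide hydrolase, r = 0.94) and Lipe (hormone-sensitive lipase, r = 0.94), and Acot2 had Acot1, Ephx2 and Lipe (r = 0.95 and 0.94 for the last 2). For Ucp3 they were Pdk4, the kinase that shuts off pyruvate dehydrogenase (r = 0.96), Hsdl2, a peroxisomal dehydrogenase-like protein (r = 0.92), and Ech1, a dienoyl-CoA isomerase of fatty acid oxidation (r = 0.92). Acot7 was most like the elongation factor gene Eef1b2 (r = 0.90), the coactivator gene Ppargc1a (0.89) and Tmem131 (0.89). Without the 2 arrays farthest from the median of Acot7 these r values were 0.80, 0.73 and 0.53, and over all arrays the Spearman rho was 0.75, 0.76 and 0.75. Acot9 was most like Dtx3l (0.90), Chn1 (0.87) and Nnmt (0.87). Acot13 was most like the ATP synthase gene Atp5h, Bloc1s1 and Pip5k1b (0.90 for each).

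The rest of the chromosome 12 thioesterase run was near or below background. Acot4, next to Acot1, was at 4.74, 5.24, 4.48 and 4.40 in DM replicates 1 to 4, against 3.72 to 4.46 in NC, above background on 1 array alone (limma adjusted p = 0.308). Acot3, Acot5 and Acot6 were not above background on any array. Their fitted log2 values in DM against NC were 0.49, 0.45 and 0.27 on a scale where these probe sets were not measured above the controls. Among the 12 other thioesterases 8 values were positive in DM against NC, with a median of 0.03, and 0 passed. The 4 of them above background on any array were Acot4, Acot8 and Acot11, and the lysosomal Ppt1, and the last 3 had values of -0.19, -0.14 and -0.26. In DM_AngIV against DM Acot4 had -0.39 and Acot11 had 0.24 (limma adjusted p = 0.666 and 0.661).

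The heat-producing Ucp1 of brown fat was below background in all hearts, between 2.05 and 3.67, with a fitted value of -0.49 in DM against NC. Of the other carriers related to the uncoupling proteins, Slc25a14 was not above background on any array (-0.34 in DM against NC and 0.46 in DM_AngIV against DM). Slc25a27 was above it on 1, in DM, with 0.22 in DM_AngIV against DM, and Slc25a30 was at 5.77 ± 0.14 in DM and 5.53 ± 0.27 in NC (SD, n = 4 each; limma adjusted p = 0.639). The 4 carriers had a median log2 fold change of -0.09 in DM against NC and of 0.05 in DM_AngIV against DM. The ADP/ATP carriers Slc25a4 and Slc25a5, the main nucleotide carriers of the inner membrane, had values of 0.01 and -0.03 in DM against NC and of 0.09 and 0.01 in DM_AngIV against DM, and Slc25a31 had 0.11 in DM against NC. Of 8 skeletal muscle markers 1 was above background, Actn3, and the list had a mean between 3.62 and 3.97 on every array. Of 10 adipocyte markers 3, Fabp4, Lipe and Cidea, were above background, and the fat-defining Adipoq, Lep and Plin1 were below it on every array.

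The wider pathway was followed in 9 lists with 86 measured genes. The carnitine shuttle, which carries fatty acids into mitochondria, was listed together with genes of malonyl-CoA control, which are outside the shuttle itself. This joint list had 9 of 9 positive values in DM against NC with a median of 0.30, and 0 passed. In 5 of its 9 genes every DM heart was above every NC heart, where 2.45% of all genes were higher without overlap and 49.8% were positive. Cpt1a, the liver-type carnitine acyltransferase, had 0.73 (limma adjusted p = 0.244) and the muscle-type Cpt1b 0.33 (0.374). Of 14 other PPAR targets of heart 11 were positive, with a median of 0.36, and 0 passed. Against the same 2.45% of all genes, 6 were higher without overlap and 0 were lower, where 2.09% of all genes were lower. Pdk4 was at 10.31, 9.73, 9.18 and 8.58 in DM replicates 1 to 4, against 8.03, 8.44, 8.36 and 7.32 in NC replicates 1 to 4 (limma adjusted p = 0.308). The triglyceride lipase Pnpla2 had a log2 fold change of 0.58 (limma adjusted p = 0.152) and the lipid droplet gene Cidea, also on the adipocyte list, 0.56 (0.234).

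Among 14 enzymes of mitochondrial beta-oxidation 12 were positive, with a median of 0.12 and 0 passing, among them the reductase Decr1 (0.48) and the dehydrogenase Acadl (0.32). Among 9 peroxisomal and PPAR-alpha marker genes 5 were positive, with a median of 0.12, among them Hsd17b4 (0.35) and Ech1 (0.21). The 10 measured acyl-CoA synthetases had 5 positive values and a median of 0.00, with Acsf2 at 0.60 (limma adjusted p = 0.247) and Acsl6 at -0.40 (0.418). Acsl1 and Acsl3, also on that list, were not among the measured genes, so the median says nothing about them. Of the 11 regulators 8 were positive, with a median of 0.06. The coactivator Ppargc1a had 0.42 (limma adjusted p = 0.351) and Pparg 0.48 (0.461), while Ppara itself had -0.18 (0.743).

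In DM_AngIV against DM 0 genes of these lists passed. The other PPAR targets had 11 of 14 negative values and a median of -0.13, with Fitm2 at -0.34 and Cidea at -0.32. The joint list of carnitine shuttle and malonyl-CoA control had 6 of 9 negative values and a median of -0.08, with Cpt2 at -0.30 and Slc22a5 at 0.19. Beta-oxidation enzymes had a median of 0.01, with Echs1 at 0.21 and Decr1 at -0.19. Peroxisomal genes had -0.08, with Pex11a at -0.32 and Hsd17b4 at -0.23. Acyl-CoA synthetases had a median of 0.22, with Acsl6 at 0.34 and Acss2 at 0.23, and the regulators 0.09, with Perm1 at 0.26 and Pparg at 0.21.

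In DM_AngIV against NC 2 genes of the lists passed, Pnpla2 and Cpt1a, both higher. Pnpla2 was at 10.20, 10.62, 10.51 and 10.63 in DM_AngIV replicates 1 to 4, against 9.64, 9.85, 9.74 and 9.74 in NC replicates 1 to 4, and rose by 0.75 ± 0.13 (SE) in DM_AngIV against NC (limma adjusted p = 0.0137). Cpt1a was at 6.95, 7.71, 7.39 and 6.95 in DM_AngIV, against 6.05, 6.47, 6.59 and 6.46 in NC, and rose by 0.86 ± 0.19 (limma adjusted p = 0.0446). In DM_AngIV replicate 1, where Acot1, Acot2 and Ucp3 lay in the NC range, Pdk4 was at 7.34, also in that range, but Pnpla2 and Cpt1a were above every NC heart.

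**Figure D4:**
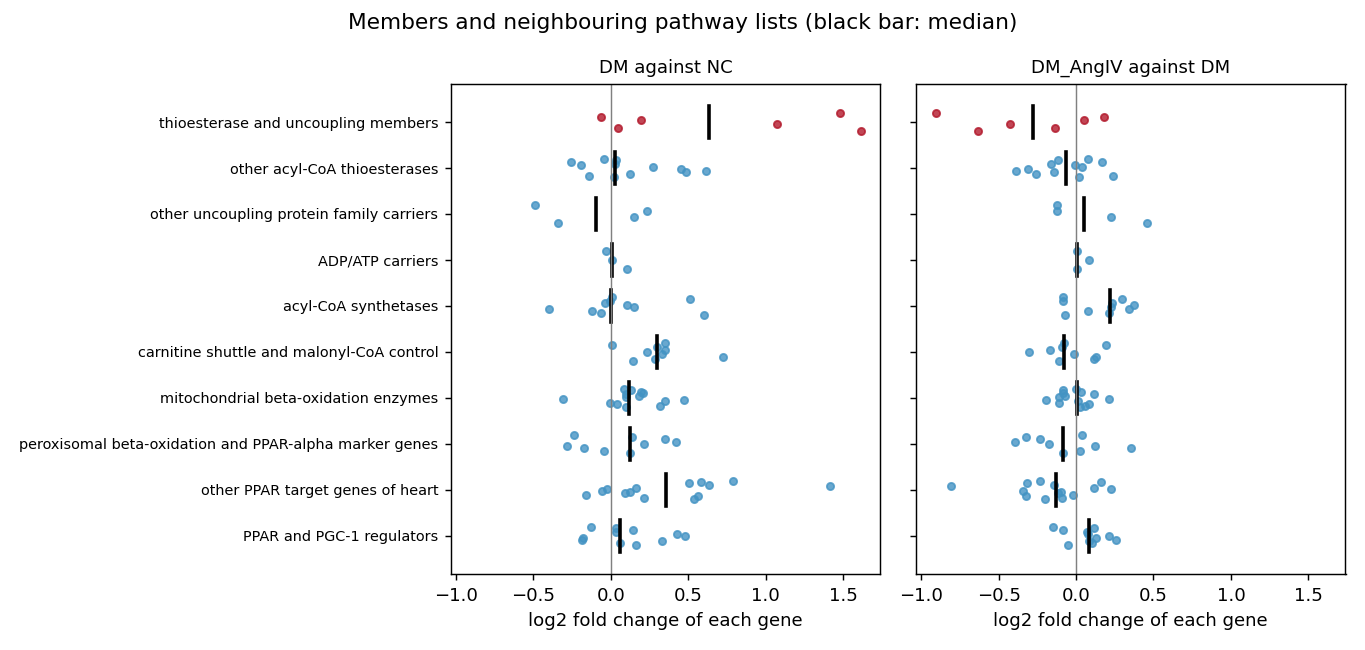
The log2 fold change of each measured gene (point) in the 6 members (red) and in the 9 pathway lists (blue), in DM against NC (left) and DM_AngIV against DM (right), with black bars at the list medians. In DM against NC 3 members and Pdk4 lie beyond 1, apart from the other genes of the lists, and in DM_AngIV against DM the members' median is -0.28.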

How the data were processed

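RNA of 12 hearts was measured on single-colour arrays. The deposited table holds log2 expression, made by the authors with RMA, per the submitters' processing notes; the sources used here do not give its version or annotation. RMA sets arrays to a common distribution, which can hide a shift shared by most genes. The labels' protocols give 6 µg of input RNA.

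Of 29129 probe sets 19572 had 1 gene symbol, 0 had several, 2634 had no name here and 6923 were controls. All 19572 matched the reference gene table by gene ID. For 55 symbols with several probe sets the one with the highest mean was used, leaving 19505 genes. The arrays' number limits the precision. The limma p-values set a difference of group means against the spread between the mice, with each gene's variance moderated over all genes.

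A mean per group was fitted to all 12 arrays with lmFit and eBayes of limma 3.58.1 (R 4.3.3), with two-sided moderated tests of 3 comparisons, Benjamini-Hochberg adjusted over all genes, and the fit was tested on simulated data. Correlations used two-sided permutation tests. Named genes are the members, the 2 genes of each list with the smallest p in DM against NC and in DM_AngIV against DM, called list genes, and the 3 genes most like each member by r. A few other list members complete a count or a comparison, named after their values were seen: Pdk4 and Ppara, Acot3, Acot6 and Acot8, Ppt1, Slc25a30, and the markers. The members, lists and alternatives were chosen with earlier results of these data known.

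Replicate numbers were not treated as pairs of mice. Deviations of same-numbered arrays correlated with r between -0.10 and 0.17, which does not settle whether the numbers mark a pairing or a batch. Python 3.11.15 with matplotlib 3.10.9 drew the figures, and biopython 1.88 aligned the promoters.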

Additional observations from a re-analysis of the deposited data

How the results depend on the processing

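Over the alternatives tried, 405 of 414 values of the members kept their direction and their side of the threshold, 6 passed the threshold where the value over all arrays did not, and 3 changed sign, none of them past the threshold. Many settings could not change a direction, so this count overstates stability. The variance priors, gene filter, replicate block and fits to the compared groups alone left each fold change as it was. So did leaving out an array of the group not compared. Averaging probe sets changed no member's fold change, since each had 1 probe set. Acot7 was at -0.0090 in DM_AngIV against DM with the atrial covariate and at -0.019 in DM against NC without the arrays with Myl7 above background, where Acot9 was at 0.11. Those arrays leave 1 DM heart, assumed to vary like the other groups. The 6 passes were Acot1 in DM against NC in 4 settings, Acot2 without DM replicate 4, and Acot1 in DM_AngIV against NC without DM_AngIV replicate 1. Of 621 list medians 7 moved by more than the spread between replicates.

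The count of members changed in DM against NC was 1 with a threshold of 0.10, without the genes at or below the median and with the trended prior, and 0 to 2 with single arrays left out. In DM_AngIV against NC it was 0 to 1 with single arrays left out. The count over all genes in DM against NC was 17 with a threshold of 0.10, 20 without the genes at or below the median, 30 with the trended prior, 5 when adjusted for atrial signal, 0 without the Myl7 arrays, and 2 to 30 with single arrays left out, with 30 without DM replicate 4, 6 without NC replicate 1 and 5 without NC replicate 2. In DM_AngIV against NC, 198 over all arrays, the same settings gave 509, 504, 511, 214, 50 and 81 to 302. It was 302 without DM replicate 1, 95, 81 and 101 without NC replicates 1, 2 and 4, and 97, 82 and 84 without DM_AngIV replicates 2, 3 and 4. In DM_AngIV against DM it was 0 to 5, with 5 without DM_AngIV replicate 2 and 1 without replicate 4. With the replicate number as a block the count in DM_AngIV against NC was 115, and the block changed no call of a member. The causes were not tested. Signal over background limited the other thioesterases, of which 8 of 12 were not above it on any array.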
